A study of Mus musculus with 3 samples.

Results

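The genes described here are direct transcriptional targets of p53 that stop the cell cycle, repair DNA or start apoptosis, together with p53 itself and its feedback regulators. They were chosen by name from this known biology, with no measured value in the rule, but with earlier results of these data known. The list held 32 genes out of 18193 named genes on the array. Of these, 30 were read by a probe set that carries 1 gene symbol, and 28 were bright enough to be compared. Trp53, which encodes p53, and Bax were not analysed here, because no probe set is assigned to either symbol alone.

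The cells were PDL-L2, a mouse line derived from fibroblasts of the periodontal ligament, the tissue that holds a tooth root to the bone. The sources used here do not say how the line was immortalised, which can bear on p53. There were 3 arrays of total RNA, 1 per condition. The first came from cells given a pool of siRNAs against endoglin (siENG) and recombinant human BMP-2 at 250 ng/ml for 12 h. The second came from cells given a control siRNA (siCont) and the same BMP-2, and the third from siCont cells given vehicle for 12 h. BMP-2 was added 48 h after transfection, in medium with ascorbic acid and beta-glycerophosphate, while the medium of the vehicle cells is not described separately. No array held siENG cells with vehicle, so endoglin siRNA can be set against its control only in the presence of BMP-2. With single arrays, a difference from the siRNA cannot be told apart from one between cultures, RNA preparations or arrays. Endoglin is a co-receptor for ligands of the TGF-β family, and BMP-2 is a growth factor of that family that drives bone formation.

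p53 is a transcription factor that is held at a low level by MDM2 and accumulates when DNA is damaged or the cell is stressed. It binds DNA as a tetramer at pairs of short half-sites and raises genes that halt division, repair DNA or dismantle the cell. Its own inhibitors, Mdm2 among them, are also its targets, which closes a feedback loop. Its activity is controlled largely at the protein level, so transcript levels of the targets are an indirect readout.

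Start-site sequences are shown first, because the members share a regulator that binds DNA at a known motif. RefSeq windows of the GRCm38.p6 build, from 250 bases before to 50 bases after a transcription start, were listed for 21 of the 30 members read. They were searched for the p53 half-site, a motif of 10 bases named here by its name alone, which reads as the same motif on both strands. At least 1 half-site was found in 9 of the 21 members (42.9%), against 9.55% of the 27025 genes with a window. Cdkn1a was the single member with a pair of half-sites in a window at most 13 bases apart (4.76% of the members, against 0.074% of all genes). Its pair lies at chr17:29090881-29090962 on the plus strand, with the half-sites starting 73 and 51 bases before the more upstream of its listed starts and 12 bases between them. Those starts are 2790 bases apart. A second search took a pair of copies of a form of the half-site's central bases, spaced as in half-sites that abut. Cdkn1a was again the single member with a match (4.76%, against 0.833% of all genes). Its match joins the downstream half-site of the pair above to the bases right after it. Those bases are in lower case below because they do not match the motif in full. Which of these pairs p53 binds was not tested. The other sequences are the half-sites of a feedback regulator at chr10:117710910-117710969 (Mdm2, minus strand) and another at chr11:85311097-85311156 (Ppm1d, plus strand), of arrest genes at chr11:40755437-40755496 (Ccng1, minus strand) and chr6:67037413-67037472 (Gadd45a, minus strand), and of a death gene at chr9:36797335-36797369 (Ei24, minus strand). Each stretch lies before the annotated start, reads 5′ to 3′ on the strand of the gene and has the half-sites in capitals.
Cdkn1a: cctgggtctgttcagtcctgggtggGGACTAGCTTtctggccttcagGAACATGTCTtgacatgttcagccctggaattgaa
Mdm2: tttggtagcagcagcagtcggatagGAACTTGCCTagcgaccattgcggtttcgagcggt
Ppm1d: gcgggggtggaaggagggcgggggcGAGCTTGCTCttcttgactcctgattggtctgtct
Ccng1: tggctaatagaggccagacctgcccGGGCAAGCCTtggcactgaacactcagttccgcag
Gadd45a: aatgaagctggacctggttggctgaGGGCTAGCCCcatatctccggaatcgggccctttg
Ei24: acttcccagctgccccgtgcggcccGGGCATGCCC

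The half-sites of these 6 genes differ in letters, and a match to the motif is a description of the sequence, not a measured site. Sesn1, Polk and Aen also had a match. Mdm4, Btg2, Plk2, Plk3, Ercc5, Bbc3, Phlda3, Fas, Apaf1, Eda2r, Pidd1 and Dram1 had none within these windows, which says nothing of sequence farther away.

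Values are linear array signals on an arbitrary scale, as deposited, and each gene was read by its brightest probe set. Signals of different genes are not compared, since each probe set has its own response. A gene was compared if its mean signal over the 3 arrays, taken on the log scale, reached 23.0, the median of all signals, and 10332 genes did. The siENG plus BMP-2 array was brighter as a whole, with a median signal of 23.8, against 22.5 for siCont plus BMP-2 and 22.8 for siCont plus vehicle. Ratios are therefore given relative to the median log2 ratio of all probe sets past the limit, which was 0.21 for siENG plus BMP-2 over siCont plus BMP-2, 0.22 for siENG plus BMP-2 over siCont plus vehicle and 0.01 for siCont plus BMP-2 over siCont plus vehicle. A gene was counted as higher or lower where its relative ratio reached 1.5 or 0.667, which is a rule of size and not a test. With 1 array per condition there is no replicate error and no p-value. The spread of all probe sets of similar signal, as a robust SD on the log2 scale, is given as a scale for single values, and it holds real change as well as noise. Robust SDs are counted from the median log2 ratio of all probe sets past the limit, called the middle. Only the spread is taken from genes of similar signal. In bulk RNA, fewer cells of a type and less RNA per cell cannot be told apart.

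Endoglin itself had a signal of 108 with siENG plus BMP-2, 298 with siCont plus BMP-2 and 286 with siCont plus vehicle, a relative log2 ratio of -1.67 between the BMP-2 arrays. Its second probe set gave -1.62. Of 9 fibroblast and ligament markers 8 were read, all past the limit, with summed signals of 38838, 34466 and 33915 in the same order of arrays. Col1a2, a chain of type I collagen, had 10255, 9773 and 9569. No endothelial marker of 6 and no epithelial marker of 6 was past the limit. Their summed signals were 48.2, 50.6 and 30.8 for the endothelial list and 61.7, 111 and 109.8 for the epithelial list. Leukocyte markers were past the limit for 2 of the 11 genes read, Cd68 and Csf1r, and the 11 had summed signals of 277, 169 and 189.7. Cd68, a lysosomal protein of macrophages that fibroblasts also make, had signals of 118, 50.0 and 71.0, and the leukocyte gene Ptprc had 8.10, 0.900 and 4.20. Bacterial control probe sets reached 13.1, so Ptprc was within their range on every array. The leukocyte list did not move as a whole. Cd3e, Itgam, Adgre1 and Laptm5 had lower signals with siENG plus BMP-2 than with siCont plus BMP-2, and the other genes read had higher ones. The part of these differences in the values below was not tested.

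**Figure D1:**
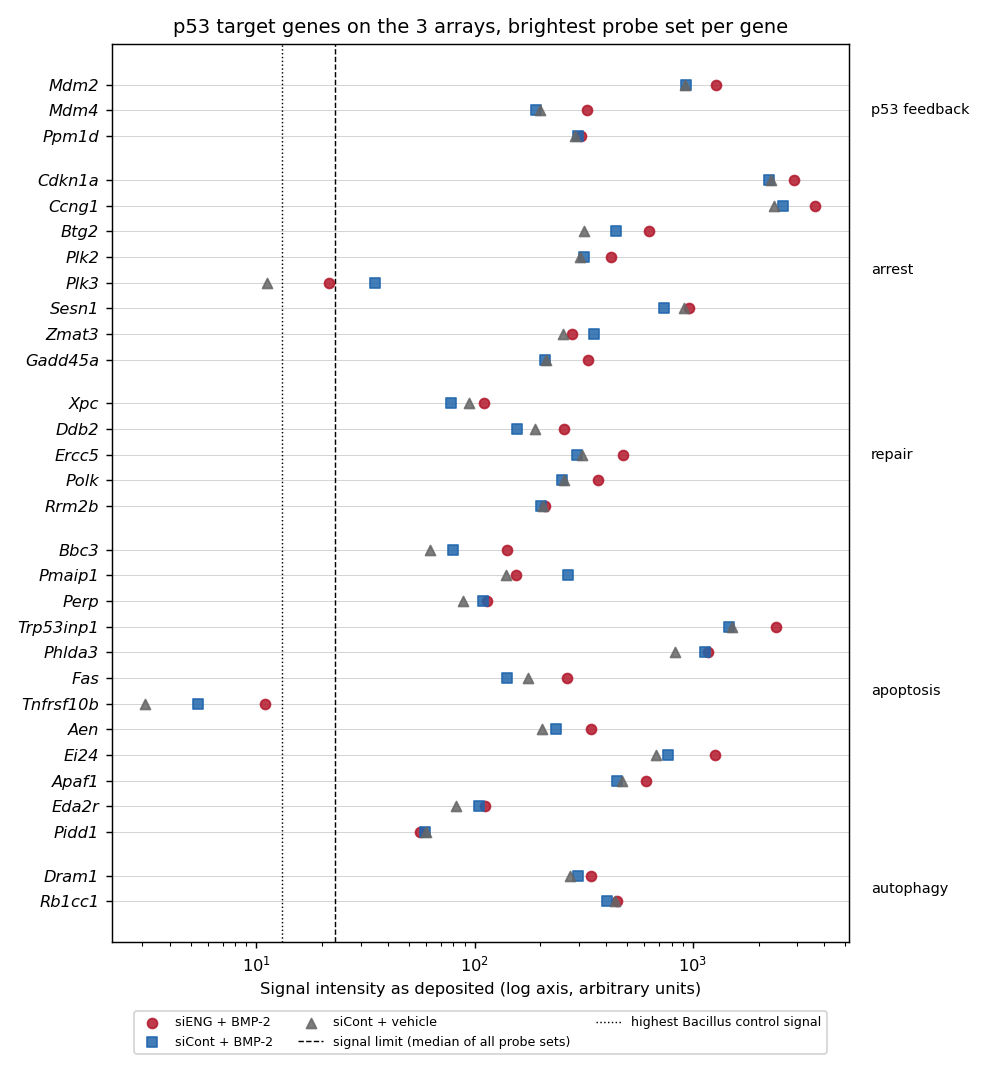
Signal of the 30 members read, on a log axis, grouped by role, with 1 point per array (siENG plus BMP-2, siCont plus BMP-2, siCont plus vehicle). The dashed line is the limit of 23.0 and the dotted line the highest bacterial control, 13.1. Plk3 lies on either side of the limit and Tnfrsf10b below it.

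Of the 30 members read, 2 were too dim to be compared. The death receptor gene Tnfrsf10b had 10.9, 5.40 and 3.10 on the siENG plus BMP-2, siCont plus BMP-2 and siCont plus vehicle arrays, all within the range of the bacterial controls. Plk3, a polo-like kinase gene, had 21.6, 34.9 and 11.2, for a mean of 20.4 just below the limit. Neither entered the counts. The members nearest above the limit were Pidd1 (mean 58.3) and Bbc3 (mean 88.6).

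The first comparison was siENG plus BMP-2 over siCont plus BMP-2, which asks what less endoglin changes in cells that are given BMP-2. Fas and Bbc3 were higher by the 1.5-fold rule, Pmaip1 was lower, and 25 of the 28 members lay between. Across all genes 6.46% were higher and 6.26% lower by this rule, so 2 higher (7.14%) and 1 lower (3.57%) of 28 are near the background. No member reached a ratio of 2 or of 0.5, where all genes had 1.54% higher and 1.41% lower. The median relative log2 ratio of the members was 0.24, beside 0.03 for all genes, and 18 of the 28 (64.3%) lay above 0, beside 54.1% of all genes. Measured against the spread of genes of similar signal, Trp53inp1 and Fas stood more than 2 robust SDs above the middle (7.14%, beside 4.09% of all genes). Pmaip1 stood as far below it (3.57%, beside 4.16%), while 13 members lay within 1 robust SD (46.4%, beside 65.9%). All 3 genes that passed the 1.5-fold rule encode death proteins, a role held by 11 of the 28 members, and the 3 went in different directions.

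The scaling bears on this count. With signals as deposited, without removing the shift between arrays, 8 members were higher (Fas, Bbc3, Mdm4, Ddb2, Trp53inp1, Ei24, Ercc5 and Gadd45a, beside 16.0% of all genes) and 1 was lower (beside 2.95%). Which scale is nearer to the RNA content of the cells was not tested.

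The second comparison was siCont plus BMP-2 over siCont plus vehicle, which asks what BMP-2 changes in cells given the control siRNA. Pmaip1 alone was higher by the 1.5-fold rule (3.57% of the members, beside 3.44% of all genes) and no member was lower (beside 3.12%). None reached a ratio of 2 or of 0.5, beside 0.968% and 0.600% of all genes. The median was -0.01 and that of all genes 0.00, with 13 of 28 members above 0 (46.4%, beside 50.0%). The spread between this pair of arrays was the narrowest, and measured against the spread of genes of similar signal 4 members stood more than 2 robust SDs above the middle (14.3%, beside 5.33% of all genes) and 1 below it (3.57%, beside 4.54%). The 4 were Pmaip1, Phlda3, Btg2 and Zmat3, and the 1 was Sesn1. Within 1 robust SD lay 15 members (53.6%, beside 65.5%). The rules in robust SDs were added after the values were seen.

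Across siENG plus BMP-2 over siCont plus vehicle, Bbc3, Btg2 and Ei24 were higher by the 1.5-fold rule (10.7%, beside 6.59% of all genes) and none was lower (beside 6.73%). No member reached a ratio of 2 or of 0.5, beside 1.48% and 1.58% of all genes. The median was 0.23, beside 0.03, and 21 of 28 members lay above 0, beside 54.0% of all genes. More than 2 robust SDs above the middle stood Btg2, Ei24, Bbc3 and Trp53inp1 (14.3%, beside 4.01%), none stood as far below (beside 3.99%), and 16 lay within 1 robust SD (57.1%, beside 66.1%). With signals as deposited, 10 members were higher (beside 16.4% of all genes) and none lower (beside 3.08%). The comparisons share arrays in pairs, so a value on 1 array enters 2 of them.

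**Figure D2:**
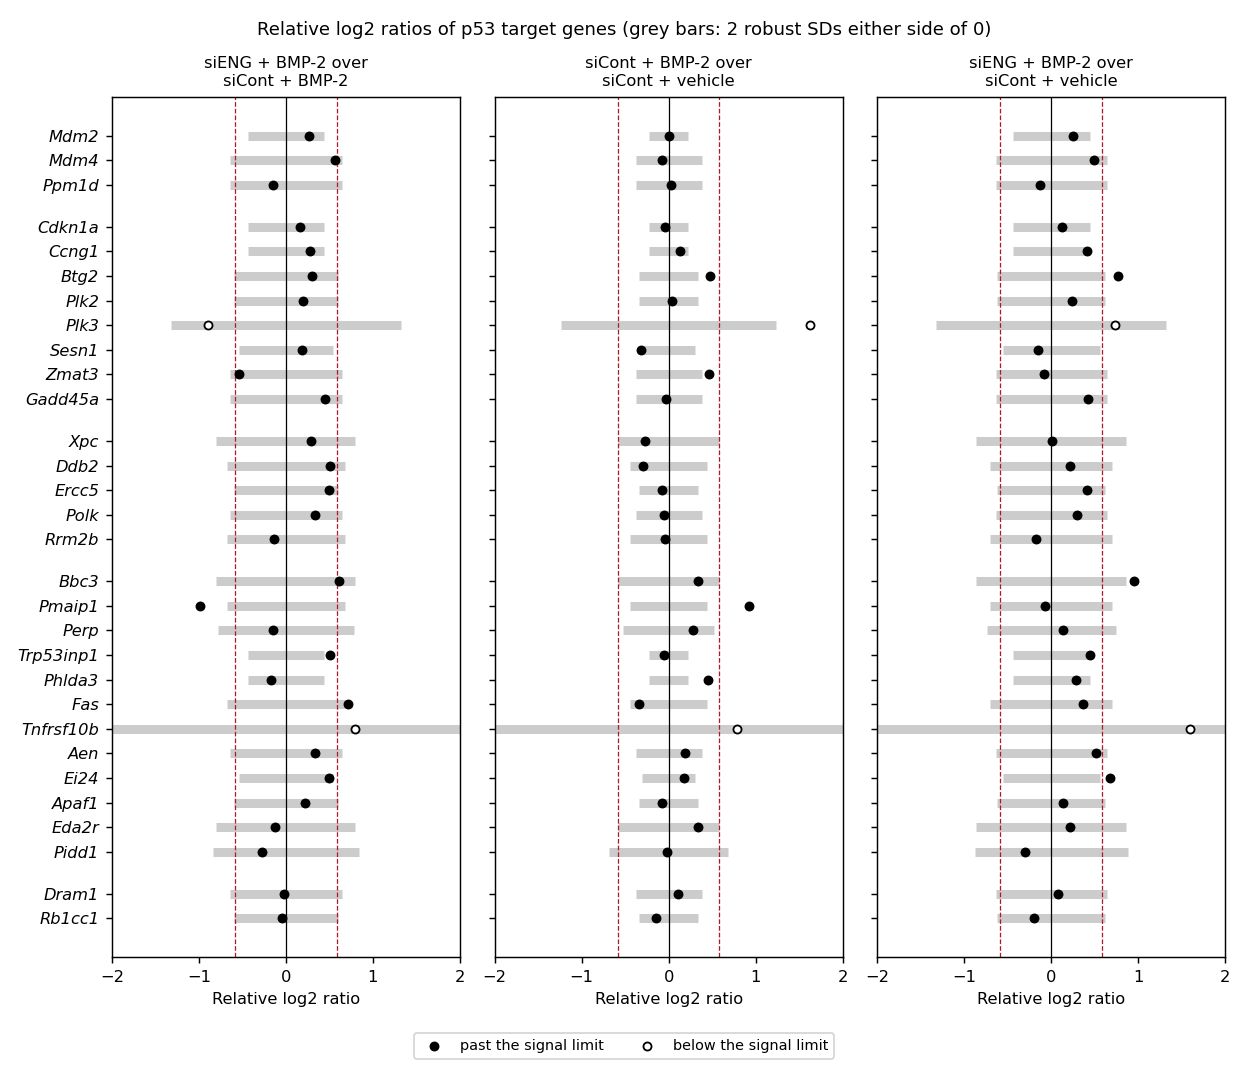
Relative log2 ratio of each member read, grouped by role, with 1 panel per comparison, filled points for members past the signal limit, open points for those below it, grey bars for 2 robust SDs on each side of 0 (those of Tnfrsf10b run past the axis) and dashed lines for the 1.5-fold rule. Among filled points Fas and Bbc3 pass it upwards and Pmaip1 downwards in the left panel, Pmaip1 alone upwards in the middle, and Bbc3, Btg2 and Ei24 upwards in the right panel.

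Seen by array, the brightest of the 3 after scaling was siENG plus BMP-2 for 17 of the 28 members (60.7%, beside 42.9% of all genes). It was siCont plus BMP-2 for 7 (beside 28.1%) and siCont plus vehicle for 4 (beside 29.0%). The lean towards the siENG plus BMP-2 array was thus spread over small differences in many members, few of which passed the 1.5-fold rule.

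Feedback regulators came first by role. Mdm2, the ubiquitin ligase that marks p53 for destruction, had signals of 1280.3 with siENG plus BMP-2, 928 with siCont plus BMP-2 and 923 with siCont plus vehicle. Mdm2 was thus nearly equal on both siCont arrays, with relative log2 ratios of 0.26 for siENG plus BMP-2 over siCont plus BMP-2 and 0.00 for siCont plus BMP-2 over siCont plus vehicle. Mdm4, which blocks p53 as a partner of MDM2, had 326, 191 and 200.0 on these arrays, a relative log2 ratio of 0.56 between the BMP-2 arrays that fell short of the 1.5-fold rule. Its second probe set gave 0.59 for that pair, 0.61 for siCont plus BMP-2 over siCont plus vehicle, where the brightest one gave -0.08, and 1.19 for siENG plus BMP-2 over siCont plus vehicle. By this second probe set Mdm4 would pass the 1.5-fold rule in all 3 comparisons, while the next one past the limit gave -0.29, 0.30 and 0.01 in the same comparisons. Ppm1d, the phosphatase WIP1 that removes activating phosphates from p53 and its kinases, had 308, 297 and 289.7, with relative log2 ratios of -0.15 and 0.03. By the brightest probe set none of the 3 feedback genes passed the rule in any comparison. By the mean over its probe sets Mdm2 had relative log2 ratios of 0.83 for siENG plus BMP-2 over siCont plus BMP-2 and 0.77 for siENG plus BMP-2 over siCont plus vehicle, both past it, but that mean includes a probe set below the signal limit, with signals of 28.2, 5.90 and 6.90, and its second probe set past the limit gave 0.18 and 0.25.

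Cell-cycle arrest genes included the member with the clearest motif and an unremarkable signal. Cdkn1a, the gene of the cyclin-dependent kinase inhibitor p21, had signals of 2903 with siENG plus BMP-2, 2245 with siCont plus BMP-2 and 2287 with siCont plus vehicle. Relative log2 ratios were 0.16 for siENG plus BMP-2 over siCont plus BMP-2 and -0.04 for siCont plus BMP-2 over siCont plus vehicle, and its second probe set gave 0.13 and -0.01. Both values lie far inside the 1.5-fold rule, so p21 mRNA hardly differed between the arrays once the shift was removed. Ccng1, which encodes cyclin G1, had 3643, 2599 and 2354, with relative log2 ratios of 0.28 and 0.13 for the same comparisons.

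Btg2, an antiproliferative gene whose product works with the machinery that removes poly(A) tails, had the same order of arrays by both of its probe sets. Its signal was 630.5 with siENG plus BMP-2, 443 with siCont plus BMP-2 and 316 with siCont plus vehicle, highest on the first array and lowest with vehicle. Relative log2 ratios were 0.30 for siENG plus BMP-2 over siCont plus BMP-2, 0.48 for siCont plus BMP-2 over siCont plus vehicle and 0.77 for siENG plus BMP-2 over siCont plus vehicle, the last 2.53 robust SDs above the middle. Its second probe set, with signals of 217, 161 and 92.3, kept that order and gave 0.23, 0.79 and 1.01. By this second probe set Btg2 would pass the 1.5-fold rule for BMP-2 over vehicle, which the brightest one missed.

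Zmat3 and Sesn1 varied in other ways. Zmat3, which encodes an RNA-binding zinc finger protein, had 279.8 with siENG plus BMP-2, 351 with siCont plus BMP-2 and 254 with siCont plus vehicle. It was thus highest with siCont plus BMP-2, with relative log2 ratios of -0.54 for siENG plus BMP-2 over siCont plus BMP-2 and 0.46 for siCont plus BMP-2 over siCont plus vehicle. Sesn1, a sestrin that restrains mTORC1 signalling, had 963, 737 and 915, lowest with siCont plus BMP-2. Its relative log2 ratio for siCont plus BMP-2 over siCont plus vehicle was -0.32, or -2.10 robust SDs from the middle. Its other probe sets past the limit gave -0.16, -0.10 and -0.13 there, each within 1 robust SD. Between the BMP-2 arrays they gave -0.04, -0.19 and 0.57, where the brightest one gave 0.18, so the lowest array after scaling depends on the probe set. The other arrest genes did not pass the rule. Plk2, a polo-like kinase gene, had 421, 316 and 305, and Gadd45a, a stress gene that binds cell-cycle proteins, had 332, 209.9 and 213. Both were brightest with siENG plus BMP-2 and close to equal on the siCont arrays, with relative log2 ratios between the BMP-2 arrays of 0.20 for Plk2 and 0.45 for Gadd45a.

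No DNA repair gene passed the rule by its brightest probe set. For siENG plus BMP-2 over siCont plus BMP-2 the 5 of them ranged from -0.14 to 0.51 in relative log2 ratio, with a median of 0.34. Of these, 4 lay above 0 (80.0%, beside 54.1% of all genes). For siCont plus BMP-2 over siCont plus vehicle all 5 lay below 0, from -0.29 to -0.04, although the second probe set of Polk gave 0.36. Of all genes, 50.0% lay above 0 there. Of the 5 repair genes, 4 lay within 1 robust SD (80.0%, beside 65.5% of all genes). Both comparisons share the siCont plus BMP-2 array. Ddb2, which recognises ultraviolet lesions, had signals of 256 with siENG plus BMP-2, 156 with siCont plus BMP-2 and 189 with siCont plus vehicle. It was lowest with siCont plus BMP-2, with a relative log2 ratio of 0.51 between the BMP-2 arrays that its second probe set gave as 0.15. Ercc5, the nuclease XPG that cuts beside a lesion, had 479, 296 and 309, a relative log2 ratio of 0.49 between the BMP-2 arrays. Xpc, which finds distorted DNA, had 110.5, 78.3 and 94.1, also lowest with siCont plus BMP-2. Polk, a DNA polymerase that copies past damage, had 367, 251 and 258, while Rrm2b, a ribonucleotide reductase subunit that supplies nucleotides for repair, had 211, 201 and 205. Rrm2b was the repair gene below 0 between the BMP-2 arrays, with -0.14, where its second probe set gave 0.08.

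Of the 11 apoptosis genes past the limit, 2 were higher (18.2%, beside 6.46% of all genes) and 1 lower (9.09%, beside 6.26%) between the BMP-2 arrays. Pmaip1 encodes NOXA, a small BH3-only protein that neutralises survival proteins of the BCL-2 family. Its signal was 155 with siENG plus BMP-2, 268 with siCont plus BMP-2 and 139.6 with siCont plus vehicle. The siCont plus BMP-2 array thus stood alone and the others were close. Relative ratios were 0.502 for siENG plus BMP-2 over siCont plus BMP-2 and 1.91 for siCont plus BMP-2 over siCont plus vehicle. They lie -2.93 and 4.26 robust SDs from the middle. The ratio of siENG plus BMP-2 over siCont plus vehicle was 0.954. Both larger values rest on the same siCont plus BMP-2 array and on a single probe set.

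Bbc3 encodes PUMA, another BH3-only protein, and had a different order from Pmaip1. Its signal was 140.2 with siENG plus BMP-2, 79.5 with siCont plus BMP-2 and 62.3 with siCont plus vehicle. It was highest with siENG plus BMP-2 and lowest with vehicle. Relative ratios were 1.53 for siENG plus BMP-2 over siCont plus BMP-2, just past the rule, 1.27 for siCont plus BMP-2 over siCont plus vehicle and 1.93 for siENG plus BMP-2 over siCont plus vehicle. The first of these was 1.53 robust SDs above the middle and the last 2.22.

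Fas, the cell-surface death receptor, was lowest with siCont plus BMP-2, the opposite of Pmaip1. Its signal was 265 with siENG plus BMP-2, 140.1 with siCont plus BMP-2 and 176 with siCont plus vehicle. The relative ratio of siENG plus BMP-2 over siCont plus BMP-2 was 1.64, the highest of any member past the limit, or 2.10 robust SDs above the middle. For siCont plus BMP-2 over siCont plus vehicle the relative log2 ratio was -0.34, which did not pass. Cd68, noted above among the leukocyte markers, had the same order of arrays as Fas, and its part in the value of Fas was not tested.

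**Figure D3:**
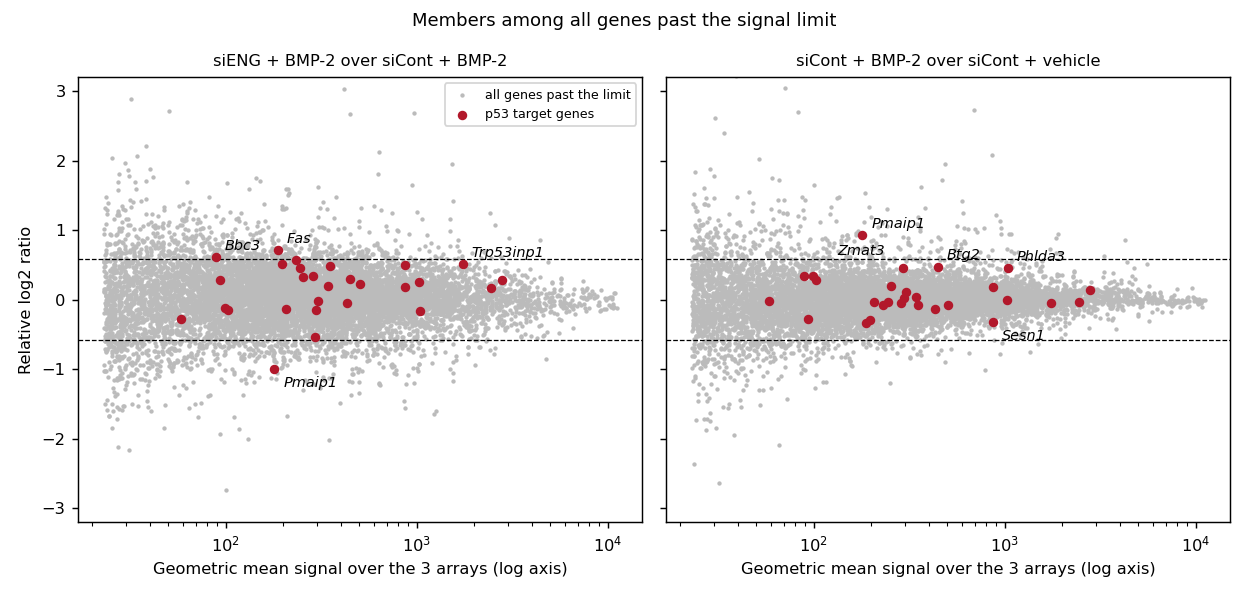
Relative log2 ratio against the geometric mean signal (log axis) for all genes past the limit (grey, with 2 genes on the left and 1 on the right outside the axis) and the 28 members (red), with siENG plus BMP-2 over siCont plus BMP-2 on the left and siCont plus BMP-2 over siCont plus vehicle on the right. The spread of all genes widens at low signal, and members more than 2 robust SDs from the middle or past the 1.5-fold rule are named, Fas, Bbc3, Trp53inp1 and Pmaip1 on the left and Pmaip1, Phlda3, Btg2, Zmat3 and Sesn1 on the right.

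Trp53inp1 and Ei24 were bright, where genes of similar signal differ little between arrays. Trp53inp1, a stress protein that promotes p53-dependent death, had 2400.1 with siENG plus BMP-2, 1463 with siCont plus BMP-2 and 1504 with siCont plus vehicle. Both siCont arrays were near each other and the siENG array was higher, with a relative log2 ratio of 0.51 between the BMP-2 arrays, or 2.29 robust SDs. Its second probe set, with 436, 222 and 201, gave 0.76, past the 1.5-fold rule. Ei24, which encodes a membrane protein of the endoplasmic reticulum, had 1265, 771 and 678. It was highest with siENG plus BMP-2 and lowest with vehicle, with a relative ratio of 1.60 for siENG plus BMP-2 over siCont plus vehicle, or 2.44 robust SDs.

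Phlda3, a repressor of AKT signalling, had higher signals as deposited on both BMP-2 arrays than with vehicle. Its signal was 1172 with siENG plus BMP-2, 1141 with siCont plus BMP-2 and 828 with siCont plus vehicle. The relative ratio of siCont plus BMP-2 over siCont plus vehicle was 1.37, below the 1.5-fold rule but 4.09 robust SDs above the middle. Eda2r, a receptor of the TNF receptor family, had the same order at low signal, with 112, 105 and 82.2, and so did Perp, a membrane protein of cell junctions, with 114, 109 and 88.8. Relative log2 ratios for siCont plus BMP-2 over siCont plus vehicle were 0.34 for Eda2r and 0.28 for Perp. For siENG plus BMP-2 over siCont plus vehicle they were 0.28 for Phlda3, or 1.27 robust SDs, 0.22 for Eda2r and 0.13 for Perp. After scaling, siCont plus BMP-2 was thus the highest array for each of these genes.

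The remaining death genes did not pass the rule in any comparison by their brightest probe set. Aen, a nuclease active in apoptosis, had 340.4 with siENG plus BMP-2, 235 with siCont plus BMP-2 and 204 with siCont plus vehicle, with relative log2 ratios of 0.33 between the BMP-2 arrays and 0.19 for siCont plus BMP-2 over siCont plus vehicle. Its second probe set gave 0.66 for siENG plus BMP-2 over siCont plus vehicle, past the rule. The next one past the limit gave -0.39 between the BMP-2 arrays. Apaf1, the scaffold of the apoptosome that activates caspase-9, had 607, 449 and 473, with 0.22 and -0.08. Pidd1, a scaffold that activates caspase-2, had 56.4, 59.0 and 59.6, nearly equal as deposited. With the shift removed its relative log2 ratios were -0.27 between the BMP-2 arrays, -0.02 for siCont plus BMP-2 over siCont plus vehicle and -0.30 for siENG plus BMP-2 over siCont plus vehicle. The autophagy genes lay near 0 between the BMP-2 arrays. Dram1, a lysosomal membrane protein, had 339.8, 299 and 275, and Rb1cc1, a subunit of the kinase complex that starts autophagy, had 449, 403 and 441. Relative log2 ratios between the BMP-2 arrays were -0.02 for Dram1 and -0.05 for Rb1cc1.

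Repeat readings within an array were available for 14 members with more than 1 probe set past the limit. The brightest and the second probe set differed by a median of 0.14 log2 units for siENG plus BMP-2 over siCont plus BMP-2, and at most by 0.36 (Ddb2). For siCont plus BMP-2 over siCont plus vehicle the median gap was 0.17 and the largest 0.69 (Mdm4). Both probe sets had the same sign in 11 of 14 members for the first pair but in 7 of 14 for the second pair, where the second probe set gave the higher value in 13 of 14. Small ratios for BMP-2 over vehicle thus depended on the probe set. Fas, Bbc3, Pmaip1, Phlda3, Zmat3, Ei24 and Gadd45a have 1 probe set each, so no such check exists for them.

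**Figure D4:**
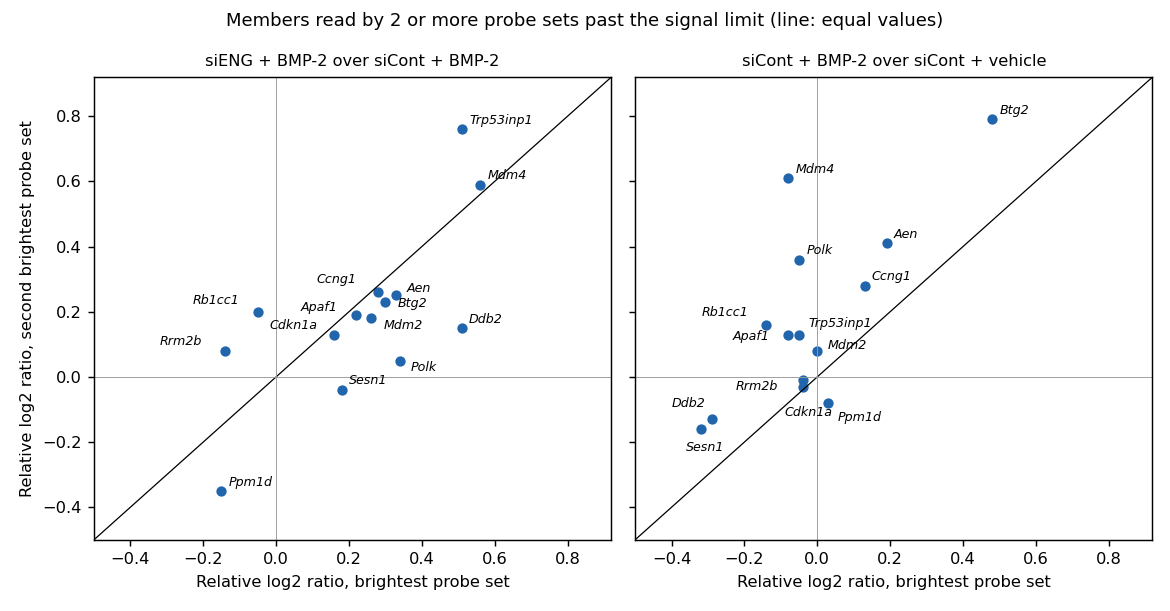
Relative log2 ratio of the second brightest against the brightest probe set for the 14 members with more than 1 probe set past the limit, with siENG plus BMP-2 over siCont plus BMP-2 on the left and siCont plus BMP-2 over siCont plus vehicle on the right. Points on the diagonal have equal values, and 13 of the 14 points in the right panel lie above it, Mdm4 the farthest, with 0.61 against -0.08.

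Other genes of the pathway were read from longer lists, drawn from general knowledge with earlier results of these data known, so their counts are not independent evidence. Among p53 modifiers and cofactors, the kinases, acetylases and binding partners that set p53 activity, 26 of 27 were read and 24 were past the limit. For siENG plus BMP-2 over siCont plus BMP-2 none was higher by the 1.5-fold rule (beside 6.46% of all genes) and 1 was lower (Hipk2, 4.17% of the list, beside 6.26%), with a median of -0.03. Hipk2, a kinase that phosphorylates p53 and also acts on SMAD signalling, had signals of 397 with siENG plus BMP-2, 789.5 with siCont plus BMP-2 and 808 with siCont plus vehicle. Its relative log2 ratio was -1.20 between the BMP-2 arrays and -0.04 for siCont plus BMP-2 over siCont plus vehicle, and its 6 other probe sets ranged from -1.14 to -0.19 in the first of these. None of the 24 passed for siCont plus BMP-2 over siCont plus vehicle, beside 3.44% of all genes higher and 3.12% lower. For siENG plus BMP-2 over siCont plus vehicle Atr and Dyrk2 were higher (8.33%, beside 6.59%) and Hipk2 lower (4.17%, beside 6.73%). Atr, the kinase that senses stalled replication, had 362, 235 and 184 on the 3 arrays, a relative log2 ratio of 0.76 over vehicle.

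Further p53 targets, which serve metabolism, stress and secretion more than arrest or death, formed a list of 39 genes. Of these, 35 were read and 29 were past the limit. Between the BMP-2 arrays 7 were higher (24.1%, beside 6.46% of all genes) and 2 lower (6.90%, beside 6.26%), with a median of 0.25. The higher ones were Ndrg1, Ddit4, Ier3, Sesn2, Tap1, Ccng2 and Ephx1, and the lower ones Sulf2 and Thbs1. For siCont plus BMP-2 over siCont plus vehicle none was higher (beside 3.44%) and 3 were lower, Sesn2, Tigar and Ddit4 (10.3%, beside 3.12%), with a median of -0.05. For siENG plus BMP-2 over siCont plus vehicle 5 were higher (17.2%, beside 6.59%) and 3 lower (10.3%, beside 6.73%), with a median of 0.11. Several of these genes answer to other regulators too, Ndrg1 and Ddit4 being well-known hypoxia genes.

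Ndrg1, a gene of stress and differentiation, had the largest ratio in that list. Its signal was 1671 with siENG plus BMP-2, 331 with siCont plus BMP-2 and 457 with siCont plus vehicle. The relative log2 ratio between the BMP-2 arrays was 2.13, and its 4 other probe sets gave from 1.72 to 2.44. Ddit4, an inhibitor of mTORC1, had 2432, 943 and 1452, and Sesn2, a sestrin like Sesn1, had 221, 95.9 and 176. By the brightest probe set both were lowest with siCont plus BMP-2, with relative log2 ratios between the BMP-2 arrays of 1.16 for Ddit4 and 1.0 for Sesn2. For siCont plus BMP-2 over siCont plus vehicle they were -0.63 and -0.89. The second probe set of Sesn2, with 151, 91.3 and 76.9, was lowest with vehicle. It gave 0.52 between the BMP-2 arrays, short of the 1.5-fold rule, and 0.24 for siCont plus BMP-2 over siCont plus vehicle. Among the members, Sesn1, Ddb2, Xpc and Fas were also lowest with siCont plus BMP-2 by the brightest probe set, as were others by smaller margins.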

How the data were processed

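Total RNA was hybridised to Affymetrix Mouse Genome 430 2.0 arrays, 1 for each of 3 conditions. The authors deposited linear signal intensities, and the submitters' notes name GCOS 1.4. The sources used here do not give the signal algorithm, background correction or scaling. The table held 45101 probe sets, of which 64 control probe sets were left out. GEO's platform annotation gave 1 symbol to 34958, several to 932 and none to 9211. Genes were read by the brightest probe set, and kept where its geometric mean signal reached 23.0. Log2 ratios were centred on the median of probe sets past that limit. Robust SDs are 1.4826 times the MAD in 20 bins of signal. The single array per condition limits precision. Named genes were all members, and in other lists those past 1.5-fold or singled out. Members and lists were chosen with earlier results of these data known. The recovery of known ratios and of a known shift between arrays was tested on simulated data, and the counts were not. Software was Python 3.11.15 with pandas 2.3.3, statsmodels 0.14.6, numpy 2.4.6 and, for figures, matplotlib 3.10.9. Alternatives covered the limit, scaling, probe set choice and fold. Promoter sequences are RefSeq's (GRCm38.p6).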

Additional observations from a re-analysis of the deposited data

How the results depend on the processing

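No paired analysis was possible because there was 1 array per condition, and no array could be left out. Shares of all genes under the same setting are given beside each count. For siENG plus BMP-2 over siCont plus BMP-2, the 2 members counted as higher became 4 of 30 with no limit on signal (beside 16.6%). With a limit at the 75th percentile (152) they became 1 of 23 (beside 3.51%), and with signals as deposited 8 (beside 16.0%). The mean over probe sets gave 5 (beside 7.02%), the second brightest probe set 4 of 26 (beside 7.53%) and a fold of 2 gave 0 (beside 1.54%). The 1 lower member became 2 with no limit (beside 18.9%) and with a limit on the higher signal (beside 7.99%), and 0 at a fold of 2 (beside 1.41%). The median became 0.45 with signals as deposited. For siCont plus BMP-2 over siCont plus vehicle, the 1 higher member became 3 with no limit (beside 15.3%) and 2 with the limit on the higher signal (beside 4.82%). It became 2 with the mean (beside 4.53%) and 3 with the second probe set (beside 4.19%). A fold of 2 gave 0 (beside 0.968%), and 4 lay beyond 2 robust SDs (beside 5.33%). The count of lower members, 0, became 1 with the mean over probe sets (Plk2, beside 4.54%) and 1 beyond 2 robust SDs (Sesn1, beside 4.54%). The median of -0.01 turned to 0.14 with the second probe set. For siENG plus BMP-2 over siCont plus vehicle, the 3 higher members became 5 with no limit, 2 with the limit at the 75th percentile, 10 with signals as deposited, 5 with the mean, 6 with the second probe set and 0 at a fold of 2, and the 0 lower members became 1 with the mean (Plk2). The median became 0.45 with signals as deposited. Counts rest on fewer or more genes under other limits, and the cause of other shifts was not tested. Of 743 single-member values under these alternatives, 708 moved by less than the robust SD and 35 by more, and 0 called values changed sign. Of the 35, 16 came with the mean over probe sets, 14 with the second brightest probe set and 5 with signals as deposited. A member with 1 probe set keeps its value under both choices of probe set, so the 708 include values that could not move. Low signal limits Plk3 and Tnfrsf10b.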

Other observations

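Of 14 mitotic genes that p53 lowers through p21, 13 were read and all 13 were past the signal limit. None passed the 1.5-fold rule in any comparison, beside 6.46% of all genes higher and 6.26% lower for siENG plus BMP-2 over siCont plus BMP-2, 3.44% and 3.12% for siCont plus BMP-2 over siCont plus vehicle, and 6.59% and 6.73% for siENG plus BMP-2 over siCont plus vehicle. Their median relative log2 ratio was -0.08 for siENG plus BMP-2 over siCont plus BMP-2, -0.13 for siCont plus BMP-2 over siCont plus vehicle and -0.23 for siENG plus BMP-2 over siCont plus vehicle. The 13 genes ranged from -0.30 to 0.24, from -0.27 to 0.06 and from -0.49 to 0.08 in these comparisons. Plk1, the kinase that drives mitotic entry, had -0.25, -0.22 and -0.47, and Aurka, a kinase of the spindle poles, had -0.28, -0.21 and -0.49, both in the lower part of these ranges.

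Of 14 genes of the wider death machinery, 13 were read and all 13 were past the limit. Between the BMP-2 arrays Bcl2 was higher (7.69%, beside 6.46% of all genes) and Fadd and Xiap lower (15.4%, beside 6.26%) by the 1.5-fold rule, with a median of -0.16. Bcl2, the founding survival protein of its family, had signals of 99.1 with siENG plus BMP-2, 55.3 with siCont plus BMP-2 and 114 with siCont plus vehicle. It was lowest with siCont plus BMP-2, the array on which Pmaip1, whose product blocks survival proteins of the same family, was highest. The relative log2 ratio of Bcl2 for siCont plus BMP-2 over siCont plus vehicle was -1.05, and its other probe sets gave -1.21 and -1.34. Those 2 were dim, with signals of 14.3 and 15.2 on the siCont plus BMP-2 array, near the highest bacterial control of 13.1. Fadd, the adaptor that links Fas to caspase-8, had 66.6, 89.4 and 84.6, a relative log2 ratio of -0.63 between the BMP-2 arrays, where Fas had 0.71. Xiap, a caspase inhibitor, had 642, 851 and 816, a relative log2 ratio of -0.62 between the BMP-2 arrays. Its next brightest probe set, with 199, 267 and 229, gave -0.63. The dimmer ones past the limit gave -1.17, 0.05 and 1.42, so only at low signal did its direction depend on the probe set. The last of these had 12.3 on the siCont plus BMP-2 array, within the range of the bacterial controls.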
